A study of Mus musculus with 11 samples.

Results

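The genes described here make, break down and signal through ceramide and sphingosine. All 10 listed genes (Acer2, Acer3, Asah1, Asah2, Sphk1, Sphk2, Sgpl1, Cers2, Cers5 and Cers6) were found among the 22180 genes measured, each read from the probe set that carries its symbol alone and, for Cers2, from the brighter of its probe sets. The set was put together because Acer2 was highest after the compound AI-9-54, so the Acer2 levels that set AI-9-54 against the other compounds are given as a description with no test. That stated reason uses no values of the other 9 genes, but the set was listed with earlier results of these data known.

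RNA was measured on single-colour microarrays in 720, a T-ALL line (leukaemia of T-cell precursors) from a mouse. The line was derived from an animal with the genotype Tcf12+/- whose Tal1 transgene is driven by the Lck promoter, which is active in developing T cells, so all groups share this genotype and all arrays describe 1 cell line. Each culture received 1 of 3 compounds for 8 h. The labels describe all 3 as inhibitors of the Runt domain, through which RUNX transcription factors hold DNA. AI-9-54 was given at 50 µM (4 arrays), AI-8-45 at 100 µM (4 arrays) and AI-7-54 at 100 µM (3 arrays, numbered 1, 3 and 4). No vehicle-treated culture was analysed here, so every difference is between 2 compounds, and in the comparisons with AI-9-54 compound and dose cannot be told apart. The labels do not say whether replicates were separate cultures, so the p-values rest on array-to-array spread that could be purely technical.

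Values are log2 expression levels. Array medians lay between 6.61 and 6.68 and precision is limited by having 3 or 4 arrays per compound. The 8 measured genes of the T-cell marker list had a median level of 11.31, above 96.3% of all genes. The B-lineage, myeloid, erythroid and stromal lists had medians of 6.15, 6.36, 7.36 and 7.19, above 34.8%, 39.5%, 56.1% and 54.2% of all genes. The erythroid list rests on 2 of its 5 genes. None of the measured genes of these other lists was called in any comparison. The array mean of the T-cell list was 10.44 to 10.55 after AI-9-54, 10.58 to 10.76 after AI-8-45 and 10.69 to 10.90 after AI-7-54, and 5 of its genes were called in at least 1 comparison. Of all genes, 5.66% were called between AI-8-45 and AI-7-54, 14.2% between AI-9-54 and AI-7-54 and 1.31% between AI-9-54 and AI-8-45. The share of all genes called in at least 1 comparison was not counted, so the marker counts have no matching share beside them. The part of the T-cell list in the results below was not tested. Of the 10 genes, Acer2 and Acer3 had replicates 1 and 2 apart from replicates 3 and 4 in all 3 groups. How many of all genes did so was not counted. Values within these replicate sets are given for Acer2, Asah1, Sgpl1 and the genes of the wider list named by the rule. The labels do not say what the numbers stand for.

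Ceramide is the lipid core from which cells build sphingomyelin and glycosphingolipids. Ceramidases cut it into a fatty acid and sphingosine, ceramide synthases rejoin the pair, and sphingosine kinases turn sphingosine into sphingosine 1-phosphate, a signal that guides the exit of T cells from the thymus and lymph nodes. Sphingosine 1-phosphate lyase ends the pathway by an irreversible cut. Ceramide is widely linked to growth arrest and cell death and sphingosine 1-phosphate to survival and migration.

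Acer2 encodes an alkaline ceramidase of the Golgi apparatus and lies on chromosome 4 (GRCm38.p6, 86874348 to 86932524). Its level was 9.82, 9.81, 10.42 and 10.22 in replicates 1 to 4 after AI-9-54, against 8.84, 8.88, 9.11 and 9.19 after AI-8-45 and 8.37, 8.51 and 8.45 in replicates 1, 3 and 4 after AI-7-54. The 3 groups did not overlap, and they stood in the order AI-9-54, AI-8-45, AI-7-54. Means were 10.07 ± 0.30 (SD, n = 4), 9.0 ± 0.17 (n = 4) and 8.45 ± 0.07 (n = 3). AI-9-54 thus stood 3.08-fold above AI-7-54 (log2 difference 1.62, SE 0.14) and 2.09-fold above AI-8-45 (1.06, SE 0.13). Only 6 of the 22180 genes had a larger positive difference between AI-9-54 and AI-7-54. That rank restates the choice of Acer2, and the SEs describe array spread without testing these differences. Each array holds the RNA of a whole culture, so a change in the share of cells with Acer2 RNA and a change in RNA per cell cannot be told apart.

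The stated reason for choosing the genes did not use the comparison at the matched dose of 100 µM. There Acer2 was 1.47-fold higher after AI-8-45 than after AI-7-54 (log2 difference 0.56, 95% interval 0.26 to 0.86, limma adjusted p 0.034), with all 4 arrays above all 3. It was the 1 gene of the 10 that passed the test between these compounds, where 5.66% of all genes passed, 16.7% had an unadjusted p under 0.05, and 15.9% had arrays apart (6.79% higher, 9.07% lower). Taken by replicate set, the difference came to 0.48 (replicates 1 and 2) and 0.67 (replicates 3 and 4). The Acer2 difference stayed between 0.50 and 0.61 when single arrays were left out, but its call did not always hold. For this call, leaving out AI-7-54 replicate 1, 3 or 4 gave limma adjusted p-values of 0.107, 0.0957 and 0.105, and leaving out AI-8-45 replicate 3 or 4 gave 0.0903 and 0.0815. It was kept when replicate set entered the model, and over all 22 alternatives the adjusted p ran between 0.000456 and 0.14.

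Replicates 3 and 4 were higher than replicates 1 and 2 for Acer2 in all 3 groups, by 0.50 on the log2 scale after AI-9-54, 0.29 after AI-8-45 and 0.11 after AI-7-54. The sets did not overlap within any group, but AI-7-54 has a single array in the first set. Within replicates 1 and 2, AI-9-54 stood above AI-7-54 by 1.44 and above AI-8-45 by 0.96. Within replicates 3 and 4 these differences were 1.84 and 1.17.

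**Figure D1:**
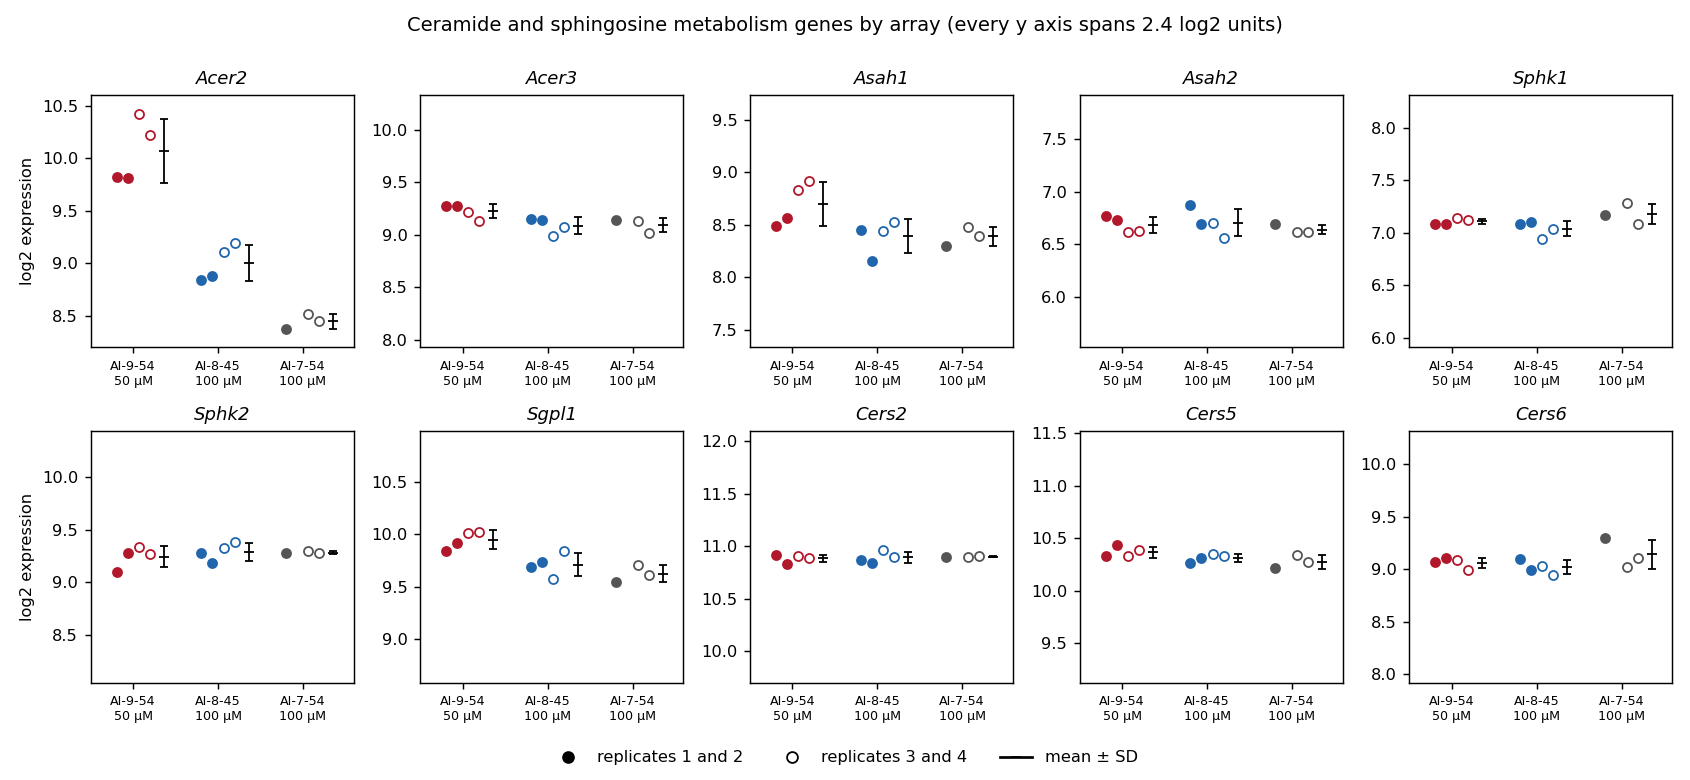
Log2 expression of the 10 genes on each array, by compound and dose (filled points replicates 1 and 2, open points replicates 3 and 4, bars mean ± SD, every vertical axis spans the same range). Acer2 separates all 3 compounds, with AI-9-54 at 9.81 to 10.42 and AI-7-54 at 8.37 to 8.51, while the 3 ceramide synthase genes and the sphingosine kinase genes overlap between compounds.

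The other ceramidase genes differ in the pH and the membrane at which their enzymes work. Asah1 encodes acid ceramidase of the lysosome. Its level was 8.49, 8.57, 8.83 and 8.92 after AI-9-54, against 8.45, 8.15, 8.45 and 8.53 after AI-8-45 and 8.30, 8.48 and 8.40 after AI-7-54. All AI-9-54 arrays lay above all AI-7-54 arrays, by a narrow gap, and the lowest AI-9-54 array lay below the highest AI-8-45 array. Asah1 missed the threshold against AI-7-54 (log2 difference 0.31, interval 0.07 to 0.55, limma adjusted p 0.0905) and against AI-8-45 (0.31, interval 0.09 to 0.53, adjusted p 0.221). It passed in both when replicate set entered the model (adjusted p 0.00492 and 0.0249), and against AI-7-54 also without AI-9-54 replicate 1 (0.0393). Over all alternatives the adjusted p ran between 0.00492 and 0.432 against AI-7-54 and between 0.0249 and 0.562 against AI-8-45. After AI-9-54 its mean was 8.87 in replicates 3 and 4 and 8.53 in replicates 1 and 2. Against AI-7-54 the difference by replicate set came to 0.23 (replicates 1 and 2) and 0.43 (replicates 3 and 4), and against AI-8-45 to 0.23 and 0.38. Between AI-8-45 and AI-7-54 its difference was 0.00 (interval -0.24 to 0.24, adjusted p 0.998).

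Acer3 encodes an alkaline ceramidase of the endoplasmic reticulum and Golgi that prefers unsaturated ceramides. It had 9.27, 9.27, 9.22 and 9.13 after AI-9-54, against 9.15, 9.14, 8.98 and 9.07 after AI-8-45 and 9.14, 9.13 and 9.02 after AI-7-54. The groups overlapped at the lowest AI-9-54 array. Differences of 0.13 from AI-7-54 (interval 0.01 to 0.25) and 0.14 from AI-8-45 (0.02 to 0.25) missed the threshold (limma adjusted p 0.181 and 0.299), and so they did under all 22 alternatives. Acer3 ran against Acer2 between the replicate sets, with replicates 3 and 4 below replicates 1 and 2 by 0.09 after AI-9-54, 0.12 after AI-8-45 and 0.06 after AI-7-54. Asah2, the neutral ceramidase gene, was dim throughout, at 6.62 to 6.77 after AI-9-54, 6.56 to 6.88 after AI-8-45 and 6.61 to 6.69 after AI-7-54, near the array medians. No background level was given, so low values of this kind are a dim signal and not an absence, and its adjusted p was 0.742 to 0.942 over the 3 comparisons.

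Sgpl1 encodes sphingosine 1-phosphate lyase, an enzyme of the endoplasmic reticulum. Its level was 9.84, 9.92, 10.01 and 10.02 after AI-9-54, against 9.69, 9.74, 9.57 and 9.84 after AI-8-45 and 9.55, 9.71 and 9.61 after AI-7-54. All AI-9-54 arrays lay above the arrays of both other compounds, though the gap to the highest AI-8-45 array was slight. Against AI-7-54 it was 1.25-fold higher (log2 difference 0.33, interval 0.18 to 0.47, limma adjusted p 0.00662), and it was the 1 gene of the 9 tested that passed, where 14.2% of all genes passed. By replicate set it came to 0.33 (replicates 1 and 2) and 0.36 (replicates 3 and 4), and each set by itself missed the threshold (adjusted p 0.0833 and 0.0583). Leaving out single arrays moved it between 0.29 and 0.37, and the call was kept each time. Against AI-8-45 the difference of 0.24 (interval 0.10 to 0.38) missed the threshold (adjusted p 0.103), and it passed when replicate set entered the model (0.046). AI-8-45 and AI-7-54 differed by 0.09 (interval -0.06 to 0.24, adjusted p 0.637).

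The sphingosine kinase genes, whose enzymes make the substrate of the lyase, did not pass the test in any comparison. Sphk1, the kinase gene of the cytosol and plasma membrane, had 7.08, 7.08, 7.14 and 7.12 after AI-9-54, against 7.08, 7.10, 6.94 and 7.04 after AI-8-45 and 7.17, 7.28 and 7.08 after AI-7-54. The groups shared the value 7.08, which is identical as deposited on 4 arrays. Values shared by at least 4 arrays occurred in 10.1% of all genes, and their effect on the spread was not tested. The lowest unadjusted p of Sphk1 was 0.0257, between AI-8-45 and AI-7-54 (log2 difference -0.14, interval -0.26 to -0.02, limma adjusted p 0.201). Sphk2, the kinase gene whose enzyme is also found in nuclei and mitochondria, ranged over 9.10 to 9.34 after AI-9-54, 9.18 to 9.38 after AI-8-45 and 9.28 to 9.30 after AI-7-54. Its intervals lay between -0.17 and 0.14 over the 3 comparisons (adjusted p 0.791 to 0.978), and it too had 4 arrays at 1 value.

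The ceramide synthase genes, each of which adds acyl chains of its own length range, did not pass the test in any comparison. Cers2, for very long chains, lay between 10.83 and 10.91 after AI-9-54, 10.85 and 10.97 after AI-8-45, and at 10.90 on all AI-7-54 arrays. Its 95% intervals did not reach beyond -0.11 or 0.09 in any comparison (limma adjusted p 0.909 to 0.983). The dimmer probe set of Cers2 averaged 7.94 ± 0.03 after AI-9-54, 7.85 ± 0.16 after AI-8-45 and 7.98 ± 0.09 after AI-7-54, and with the mean of both probe sets no comparison was called. Cers5 and Cers6 both favour palmitoyl chains. Cers5 lay between 10.33 and 10.44 after AI-9-54, 10.26 and 10.35 after AI-8-45, and 10.21 and 10.34 after AI-7-54. Its largest difference was 0.09 between AI-9-54 and AI-7-54 (interval -0.01 to 0.20, adjusted p 0.248). Cers6 lay between 8.99 and 9.10 after AI-9-54, 8.94 and 9.10 after AI-8-45, and 9.02 and 9.29 after AI-7-54. Its largest difference was -0.12 between AI-8-45 and AI-7-54 (interval -0.26 to 0.02, adjusted p 0.376), and AI-7-54 replicate 1 was its highest array.

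Of the 9 genes other than Acer2, 0 were called between AI-8-45 and AI-7-54, 1 between AI-9-54 and AI-7-54 and 0 between AI-9-54 and AI-8-45, and no test compared these counts. Between AI-8-45 and AI-7-54, they had a median difference of 0.00, with 1 at an unadjusted p under 0.05, and their 95% intervals stayed between -0.26 and 0.24. Between AI-9-54 and AI-7-54 their median was 0.04 against -0.001 for all genes, with 3 at an unadjusted p under 0.05, against 24.4% of all genes. Asah1 and Sgpl1 were the 2 of the 9 with all AI-9-54 arrays above all AI-7-54 arrays, and over all genes the arrays were apart in 23.2% (11.3% higher, 12.0% lower). Between AI-9-54 and AI-8-45 their median was 0.06 against 0.00 for all genes. There limma called none of the 9, with 3 (Acer3, Asah1 and Sgpl1) at an unadjusted p under 0.05, while 1.31% of all genes were called and 11.4% had an unadjusted p under 0.05. Only Sgpl1 of the 9 had its arrays apart, where 6.67% of all genes did (3.83% higher, 2.84% lower). The 2 comparisons with AI-9-54 share its arrays, and those with AI-7-54 share its arrays as well, so their counts are not independent.

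**Figure D2:**
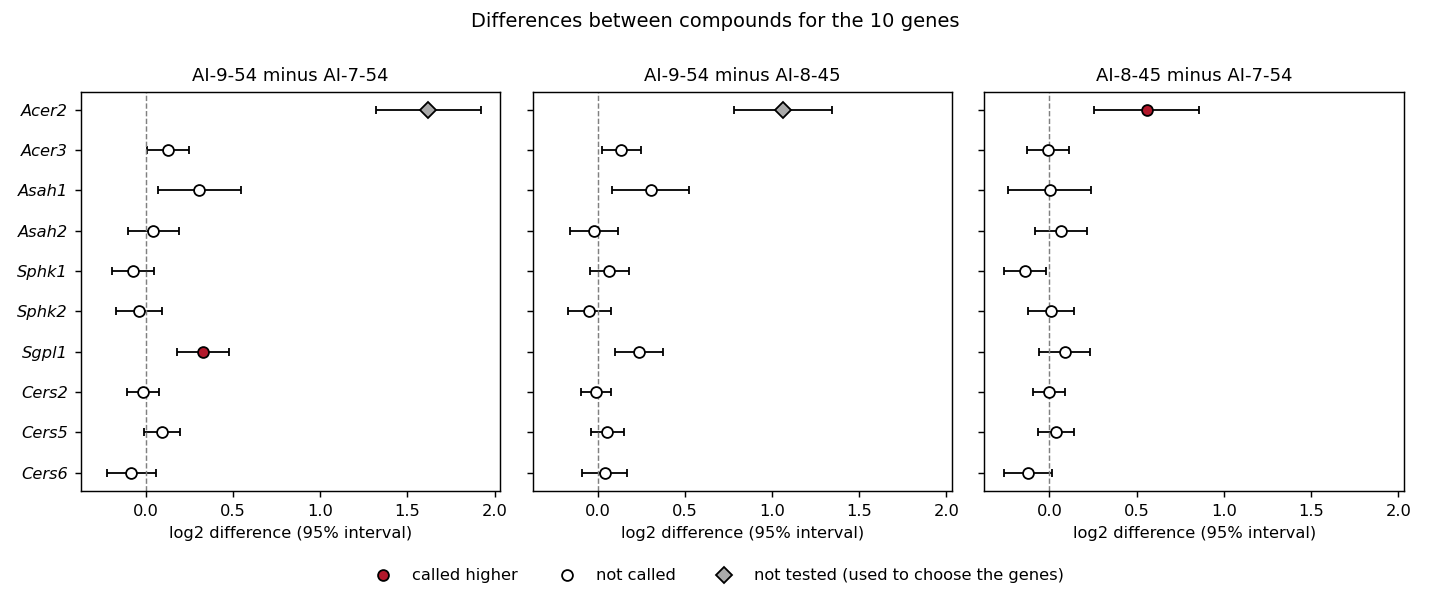
Log2 difference with its 95% interval for the 10 genes in each pairwise comparison (filled circles called by limma, open circles not called, grey diamonds not tested because Acer2 was chosen on that difference). Acer2 lies furthest to the right in each panel, at 1.62, 1.06 and 0.56, and Sgpl1 is the 1 other called gene. The intervals on the diamonds describe array spread and are no test.

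Promoter sequence from RefSeq was at hand for 9 of the 10 genes, all but Asah1. The 250 bases before each transcript start were searched on both strands for the core RUNX motifs TGTGGT and TGCGGT, since the compounds are labelled as inhibitors of the RUNX DNA-binding domain, and for CAGATG, an E-box form bound by TAL1 with E proteins. A RUNX core was found in 4 of 16 windows, 1 each of Acer2, Sgpl1, Sphk1 and Sphk2, and in 18.6% of the windows of all genes. CAGATG was found in 1 window each of Acer3 and Sphk2 and in 14.4% of all windows, and no window of these genes held both. A match describes the letters and is not a binding site. The core stood in genes that were called and in genes that were not, which is why these stretches of 30 bases are shown 5′ to 3′ on the gene's strand, with the core in capitals (ACCGCA and ACCACA are TGCGGT and TGTGGT read on the opposite strand).
Acer2 (GRCm38.p6 chr4:86874384-86874413, plus strand): ggaggctgtcccgcACCGCAtaaagccaca
Sgpl1 (GRCm38.p6 chr10:61147828-61147857, minus strand): agttcccccgacACCACAgcccggacccag
Sphk2 (GRCm38.p6 chr7:45718003-45718032, minus strand): ctatccggaactggcgtctcTGTGGTgcac
Sphk1 (GRCm38.p6 chr11:116531875-116531904, plus strand): gacgcgtgcggaACCGCAggtccagcctgt

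The cores began at position -16 before the transcript start in Acer2, -161 in Sgpl1, -10 in Sphk2 and -24 in the third of 5 Sphk1 windows. For the 2 genes that passed a test, Acer2 and Sgpl1, the sequence upstream of the annotated gene is printed, since these are the promoters beside the differences above. The Acer2 stretch stops at the annotated gene start and so does not include its core, and both are rich in G and C (73.2% and 74.8% over the 250 bases).
Acer2 (GRCm38.p6 chr4:86874164-86874347, plus strand, 184 bases): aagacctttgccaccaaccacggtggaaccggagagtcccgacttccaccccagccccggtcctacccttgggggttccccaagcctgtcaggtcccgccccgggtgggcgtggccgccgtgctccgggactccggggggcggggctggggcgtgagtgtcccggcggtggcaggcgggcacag
Sgpl1 (GRCm38.p6 chr10:61147685-61147934, minus strand, 250 bases, core in capitals): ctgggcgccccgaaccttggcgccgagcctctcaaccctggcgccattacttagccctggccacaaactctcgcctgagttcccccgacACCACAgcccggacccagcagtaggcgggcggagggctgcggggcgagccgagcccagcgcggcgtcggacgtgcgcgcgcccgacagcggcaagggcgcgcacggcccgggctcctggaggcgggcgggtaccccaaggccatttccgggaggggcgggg

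A wider list of 60 genes for the rest of sphingolipid metabolism, of which 55 were measured, set these genes in their pathway. Between AI-9-54 and AI-7-54, 4 of the 55 were higher and 7 lower, where 6.87% of all genes were higher and 7.29% lower, and the list's median difference was 0.02. Between AI-8-45 and AI-7-54, 1 was lower and none higher, and the all-gene shares were 2.13% higher and 3.53% lower. Between AI-9-54 and AI-8-45 limma called none of the 55, against 0.708% of all genes called higher and 0.600% called lower. At an unadjusted limma p under 0.05 there were 10 of the 55, against 11.4% of all genes.

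Genes of ceramide synthesis and transfer were called in both directions between AI-9-54 and AI-7-54. Kdsr, the 3-ketodihydrosphingosine reductase gene of the first steps of ceramide synthesis, had 10.75, 10.70, 10.64 and 10.65 after AI-9-54, against 10.37, 10.45 and 10.40 after AI-7-54 (log2 difference 0.28, limma adjusted p 0.00266). Cert1, whose protein carries ceramide to the Golgi apparatus, had 10.21, 10.30, 10.27 and 10.29 after AI-9-54, against 9.93, 10.08 and 10.03 after AI-7-54 (0.25, adjusted p 0.0032). In both genes the groups did not overlap. By replicate set, Kdsr differed by 0.35 (replicates 1 and 2) and 0.22 (replicates 3 and 4), and Cert1 by 0.32 and 0.22. Neither set by itself passed for Kdsr (adjusted p 0.0659 and 0.0775) or Cert1 (0.0885 and 0.0534). Degs2, a dihydroceramide desaturase and hydroxylase gene, had 6.49, 6.56, 6.36 and 6.25 after AI-9-54, against 6.89, 6.69 and 6.80 after AI-7-54 (-0.38, adjusted p 0.00682), values near the array medians. Ormdl2, one of the regulators that restrain serine palmitoyltransferase, had 10.20, 10.26, 10.39 and 10.25 after AI-9-54, against 10.61, 10.52 and 10.76 after AI-7-54 (-0.35, adjusted p 0.00338). By replicate set, Degs2 differed by -0.37 (replicates 1 and 2) and -0.44 (replicates 3 and 4), and only the first missed the threshold by itself (adjusted p 0.0669). Ormdl2 differed by -0.37 and -0.32, and both missed it (0.0955 and 0.0769). The main dihydroceramide desaturase gene Degs1 was lower as well (9.39 ± 0.04, SD, n = 4, against 9.59 ± 0.08, n = 3, adjusted p 0.0253). Its call ended without AI-7-54 replicate 1 or 4 or without AI-9-54 replicate 2, 3 or 4 (adjusted p 0.0524 to 0.106), and its adjusted p ran between 0.0121 and 0.189 over all alternatives. Of 11 measured genes of de novo synthesis, 1 was called higher, 3 were called lower and 7 were not called, where 6.87% of all genes were called higher and 7.29% lower.

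**Figure D3:**
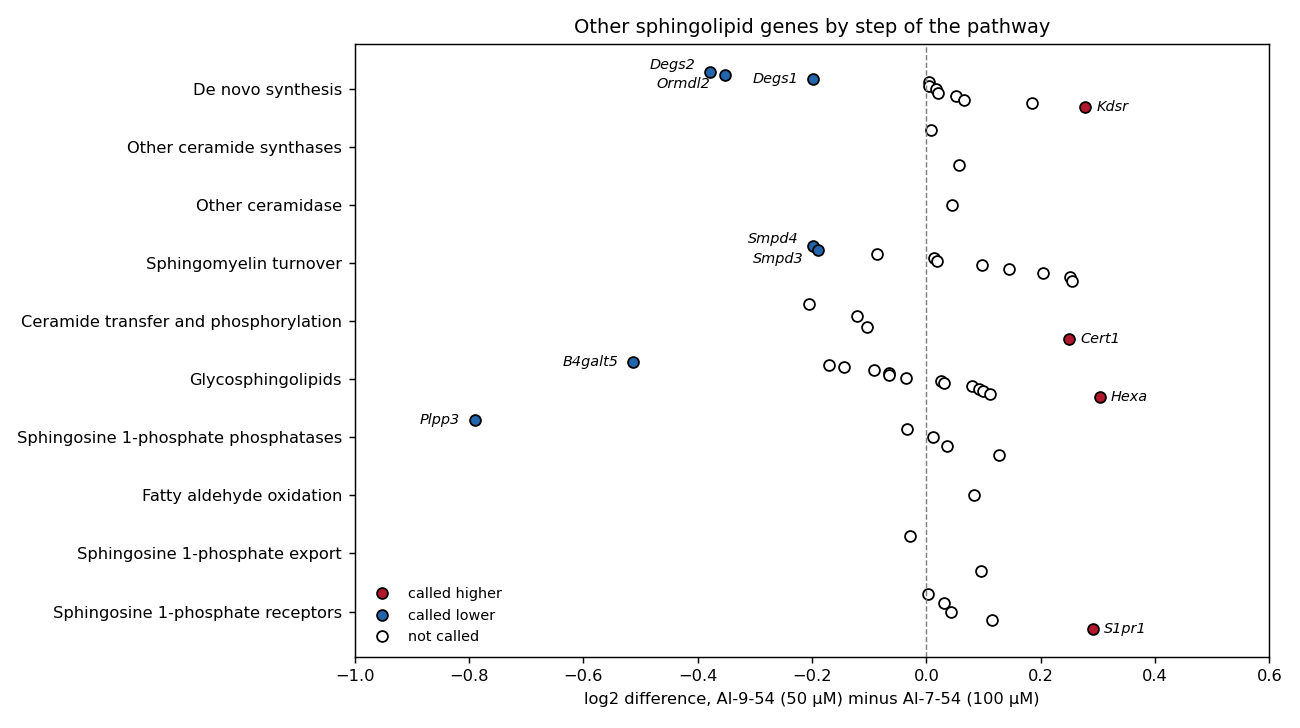
Log2 difference between AI-9-54 (50 µM) and AI-7-54 (100 µM) for the 55 measured genes of the wider list, grouped by step of the pathway (red called higher, blue called lower, open not called). Calls lie on both sides of 0, with Plpp3 lowest at -0.79 and Hexa highest at 0.30.

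Plpp3 encodes a membrane phosphatase that takes the phosphate from sphingosine 1-phosphate and related lipids, and it was lower after both other compounds than after AI-7-54. It had 8.82, 8.82, 9.25 and 9.27 after AI-9-54 and 8.95, 8.85, 9.21 and 9.31 after AI-8-45, against 9.65, 9.92 and 9.92 after AI-7-54. No AI-7-54 array overlapped those of the other compounds, and the replicate sets were apart in each group. The log2 difference was -0.79 for AI-9-54 (limma adjusted p 0.0024) and -0.75 for AI-8-45 (adjusted p 0.00842), and both were set against the same AI-7-54 arrays. By replicate set, the AI-9-54 difference came to -0.83 (replicates 1 and 2) and -0.66 (replicates 3 and 4), and the AI-8-45 difference to -0.75 and -0.66. The AI-8-45 call ended without AI-7-54 replicate 3 (-0.71, adjusted p 0.0521), and its adjusted p ran between 1.46e-05 and 0.125 over all alternatives. B4galt5, a lactosylceramide synthase gene, had 8.63, 8.76, 9.10 and 8.93 after AI-9-54, against 9.44, 9.35 and 9.32 after AI-7-54 (-0.51, adjusted p 0.00606). Its groups did not overlap, and by replicate set the difference came to -0.74 (replicates 1 and 2) and -0.32 (replicates 3 and 4).

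Of the 5 sphingosine 1-phosphate receptor genes, S1pr1, the receptor that draws T cells into blood and lymph, was called between AI-9-54 and AI-7-54. It had 6.83, 6.64, 6.97 and 6.70 after AI-9-54, against 6.52, 6.58 and 6.39 after AI-7-54 (log2 difference 0.29, limma adjusted p 0.0332), levels near the array medians. All AI-9-54 arrays lay above all AI-7-54 arrays, yet leaving out AI-7-54 replicate 1, 3 or 4 gave adjusted p-values of 0.0711, 0.0515 and 0.151, leaving out AI-9-54 replicate 1 or 3 gave 0.0761 and 0.0742, and the range over all alternatives was 0.00257 to 0.294. By replicate set its difference came to 0.22 (replicates 1 and 2) and 0.35 (replicates 3 and 4). The other 4 receptor genes were not called in any comparison. A few further genes passed between AI-9-54 and AI-7-54. The lysosomal hexosaminidase gene Hexa was higher (8.87 ± 0.09 against 8.57 ± 0.19, adjusted p 0.0289), with overlapping arrays. The neutral sphingomyelinase genes Smpd3 (7.36 ± 0.10 against 7.55 ± 0.07, adjusted p 0.0459) and Smpd4 (10.29 ± 0.09 against 10.49 ± 0.05, adjusted p 0.0404) were lower. The arrays overlapped for Smpd3 and were apart for Smpd4. These 3 calls were lost without certain single arrays. Hexa lost its call without AI-7-54 replicate 3 or 4 or AI-9-54 replicate 1 or 2 (adjusted p 0.0741 to 0.143). Smpd4 lost it without any single AI-7-54 array, AI-8-45 replicate 1, or AI-9-54 replicate 1 or 2 (0.0517 to 0.156). Smpd3 kept its call only when AI-9-54 replicate 2 was the array left out, and leaving out any other single array ended it (0.0503 to 0.202). Leaving out an AI-8-45 array left the Smpd3 difference at -0.19, as these arrays enter only the shared estimate of the spread. Over all alternatives the adjusted p ran between 0.00288 and 0.327 for Hexa, 0.0148 and 0.797 for Smpd3, and 0.0218 and 0.341 for Smpd4. Hexa, Degs1, Smpd3 and Smpd4 are named in addition to the rule for named genes, after their values were seen.

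**Figure D4:**
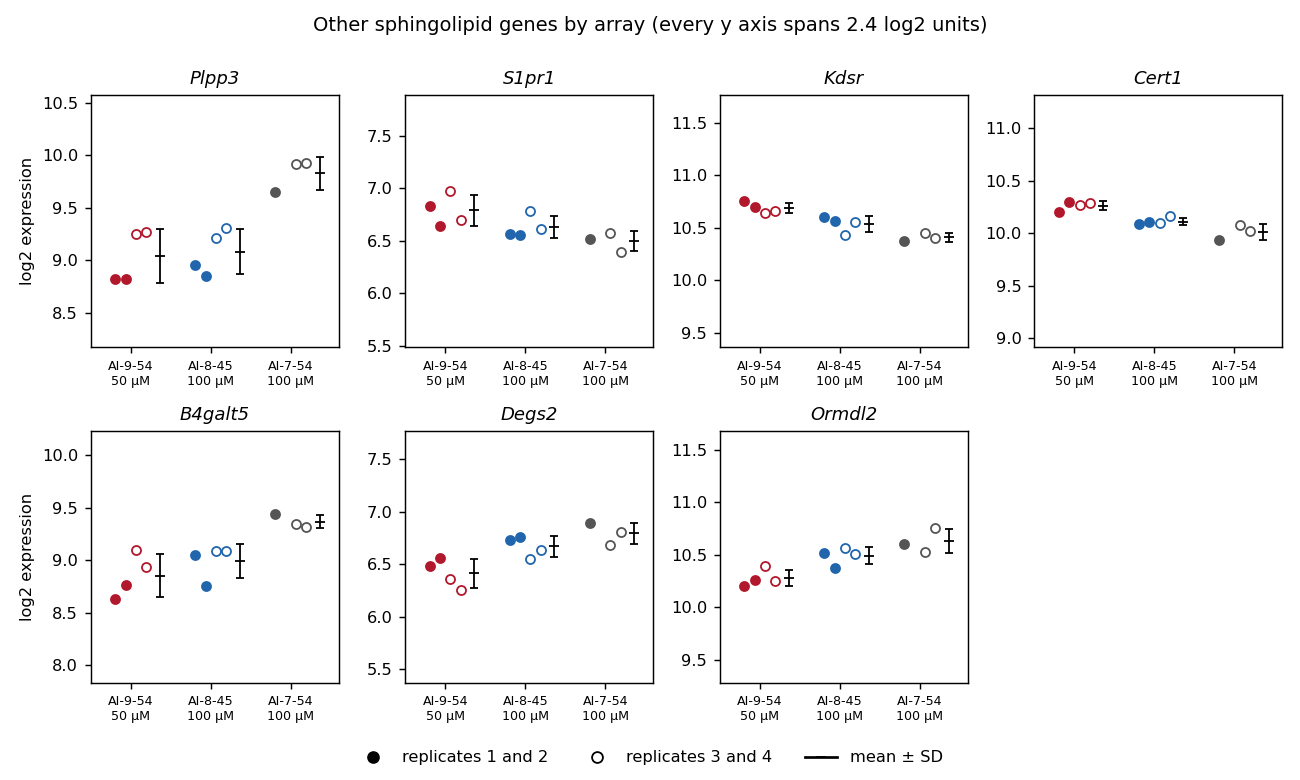
Log2 expression on each array of the 7 genes of the wider list named by the rule, by compound and dose (filled points replicates 1 and 2, open points replicates 3 and 4, bars mean ± SD, every vertical axis spans the same range). Plpp3 sits at 9.65 to 9.92 after AI-7-54, above all arrays of the other compounds, and in all 7 genes the AI-8-45 mean lies between those of the other compounds.

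The genes whose levels followed Acer2 most closely over the 11 arrays, by Pearson correlation, were Map3k4 (0.993), Wdr26 (0.984), Abcb1a (0.981), Nabp1 (0.98) and Hif1a (0.979). Map3k4, a stress-activated kinase gene, ranged over 10.11 to 10.30 after AI-9-54, 9.87 to 9.99 after AI-8-45 and 9.70 to 9.78 after AI-7-54. Abcb1a, which encodes a P-glycoprotein efflux pump, ranged over 7.83 to 8.13, 7.03 to 7.29 and 6.89 to 6.97 in the same groups. In all 5 genes the 3 compounds stood in the same order as for Acer2 without overlap, which picking the highest correlations makes likely. These correlations describe arrays that share compound, dose and replicate set, and genes were picked from all those measured for the highest value.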

How the data were processed

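The deposited log2 values, 1 per probe set and array, were made by the authors with RMA and Partek 6.6, as listed per the submitters' processing notes. Their scale was read from their range, 3.23 to 13.8. No genome build is given in the sources used here, and coordinates are those of RefSeq on GRCm38.p6. Of 41345 probe sets, the platform annotation gave 23521 a single symbol and 1814 more than 1, and 16010 are unnamed here. Entrez identifiers gave current symbols for 23328. The brightest probe set on average stood for each of 22180 genes.

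All 11 arrays entered a single limma 3.58.1 model (R 4.3.3) with compound as the only term, 8 residual degrees of freedom and a prior of 4.14. Genes were called at a two-sided Benjamini-Hochberg adjusted p under 0.05, taken over all genes. The model was also run on simulated arrays with independent noise and no replicate-set effect. Recovery was recorded there for planted differences of several sizes. A pass was required only for sizes larger than any tested difference given above. Recovery at the smaller sizes is not reported here, so no support for the calls is drawn from that run. Members and lists were chosen with earlier results of these data known. The text names all members, the receptor family, up to 4 called genes of the wider list per comparison and direction (largest differences, no overlap between groups), and the 5 genes best correlated with Acer2, predicted genes and small RNAs left out. Figures used matplotlib 3.10.9. Alternatives were median and quantile scaling, leaving out dim genes, averaging probe sets, an intensity trend, array weights, a replicate block, replicate set as a term, either set alone, fits of 2 compounds, and omission of each array.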

Additional observations from a re-analysis of the deposited data

Results flagged for a closer look

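Among 42 groups of 4 arrays checked, for the 10 genes and the called genes of the wider list, 2 held a flagged array. The flag marks a gap to the nearest array that is large for the range of the group. B4galt5 in AI-8-45 replicate 2 was 8.76, while the other 3 arrays of the group lay between 9.05 and 9.09. Chance flags about 1 in 20 such groups. Without this array, which enters the shared estimate of the spread, the B4galt5 difference between AI-9-54 and AI-7-54 was -0.51 with a limma adjusted p of 0.00331, against 0.00606 with it. Smpd3 in AI-8-45 replicate 3 was 7.53, while the other 3 arrays all lay at 7.49. This small gap was flagged because those 3 arrays were nearly tied. Without that array the Smpd3 difference between AI-9-54 and AI-7-54 had an adjusted p of 0.0537, against 0.0459 with it.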

How the results depend on the processing

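No called difference of the 10 genes or of the wider list changed direction under the 22 alternatives. Of 657 recomputed differences of the 10 genes, 35 changed sign, all of them uncalled and 0.07 or smaller in the reported fit. The count of called genes among the 10 was 1 between AI-8-45 and AI-7-54, 0 within replicates 1 and 2, and 0 to 1 when single arrays were left out. Among the 9 it was 1 between AI-9-54 and AI-7-54, 0 within replicates 1 and 2, 2 when replicate set was a term, and 1 to 2 when single arrays were left out. Between AI-9-54 and AI-8-45 it was 0 and became 2 when replicate set was a term. In the wider list, the count between AI-8-45 and AI-7-54 was 1. It became 2 with quantile normalization, without dim genes, with array weights, with replicate set as a term and with fits of 2 compounds, 0 within replicates 1 and 2, and 0 to 2 when single arrays were left out. Between AI-9-54 and AI-7-54 it was 11, against 6 within replicates 3 and 4, 1 within replicates 1 and 2, and 6 to 11 when single arrays were left out (7 without AI-7-54 replicate 1 or 3 or AI-9-54 replicate 1, and 6 without AI-7-54 replicate 4). Between AI-9-54 and AI-8-45 it was 0 and became 2 when replicate set was a term. The wider-list count between AI-9-54 and AI-7-54 also fell to 8 with fits of 2 compounds. It rose to 13 with quantile normalization and with array weights, and to 14 with replicate set as a term. Within replicates 1 and 2 AI-7-54 has 1 array, which is assumed to vary like the others. The cause of these changes was not tested.

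The replicate numbers were not shown to pair the arrays. Correlations of deviations from the group mean ran between -0.023 and 0.451 for same-numbered arrays of different compounds. They ran between 0.04 and 0.492 for different numbers in the same replicate set, and between -0.475 and 0.009 for different sets. Correlations were thus mostly higher within a replicate set than between sets, and the reported model has no term for replicate set. With the replicate block, the count among the 9 genes was 2 between AI-9-54 and AI-7-54 (Asah1 and Sgpl1) and 1 between AI-9-54 and AI-8-45 (Asah1), and in the wider list it was 12 and 2. The block left 1 call among the 10 genes and 1 in the wider list between AI-8-45 and AI-7-54.

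Over all genes, the count called between AI-8-45 and AI-7-54 was 1255, and 2 to 1949 over the alternatives. It was 3139 between AI-9-54 and AI-7-54, and 593 to 4036, and 290 between AI-9-54 and AI-8-45, and 6 to 816. There are 3 or 4 arrays per compound and no background level was given.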
